A study of Homo sapiens with 4 samples.

Results

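The kinases of the RNA polymerase II (Pol II) C-terminal domain (CTD) were examined at the level of their own mRNAs: 10 genes, taken by symbol from a list of CTD kinases and cyclins, out of 62700 gene identifiers counted. They are CDK7, CCNH and MNAT1 of TFIIH, CDK9, CCNT1 and CCNT2 of P-TEFb, CDK12, CDK13 and CCNK, and the polo-like kinase PLK3. Sequencing of poly(A) RNA gave 2 libraries per group of HEK293T, a cell line of human embryonic kidney origin. The T4A group expressed RPB1, the largest Pol II subunit, with threonine 4 of the CTD heptads changed to alanine, and the WT group expressed RPB1 with the wild-type CTD. All cells were transiently transfected, both constructs resist α-amanitin, and both groups received this toxin, which removes the cells' own RPB1, at 2.5 µg/ml for 48 hours, starting 1 day after transfection. No untransfected or untreated cells were among these libraries. The question set to these genes was whether the enzymes that write CTD phosphorylation, among them those reported to act on Thr4, kept their mRNA levels when Thr4 was replaced.

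CTD kinases act in a sequence along a gene. The CDK-activating kinase of TFIIH (CDK7, cyclin H and MAT1) phosphorylates Ser5 as Pol II starts, P-TEFb (CDK9 with cyclin T1 or T2) releases Pol II from its promoter-proximal pause, and CDK12 and CDK13, each with cyclin K, phosphorylate Ser2 during elongation. PLK3 and CDK9 have been put forward as kinases of Thr4. The CDKs among them are active only with their cyclins, so these mRNAs are described by complex, and PLK3 on its own.

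Of the 10 genes, 9 had enough counts to be tested and 1, CDK7, did not. In edgeR's quasi-likelihood test with Benjamini-Hochberg adjustment over the 18139 genes tested, called at an adjusted p under 0.05, 2 of the 9 were called lower in T4A cells, CCNT1 and CDK13. Among all genes tested 13.0% were called lower. None of the 9 was called higher, against 10.7% of all genes. At an unadjusted p under 0.05 the count was 4 lower and 0 higher, against 18.2% lower and 15.4% higher among all genes, and neither DESeq2 nor limma-voom called any member higher. In 8 of the 9 both T4A libraries lay under both WT libraries, and 59.0% of all genes had groups that did not overlap in one direction or the other. The median log2 fold change was -0.38 over the 9 genes and -0.01 over all genes tested. In bulk RNA, fewer cells of a kind and less RNA per cell cannot be told apart.

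Sequences upstream of the start site are shown for both genes that were called lower, for PLK3 as the Thr4 kinase candidate, and for MNAT1, whose fold change had the opposite sign. Each line holds the 250 bases before the RefSeq start on GRCh38.p14, 5′ to 3′ on the gene's strand. Capitals mark matches to 6 motifs: the GC box GGGCGG, the CCAAT box CCAAT, the E-box CACGTG, the TATA box TATAAA, the CRE TGACGTCA and the AP-1 site TGACTCA, with both strands read.
CCNT1 (chr12:48716708-48716957, strand minus): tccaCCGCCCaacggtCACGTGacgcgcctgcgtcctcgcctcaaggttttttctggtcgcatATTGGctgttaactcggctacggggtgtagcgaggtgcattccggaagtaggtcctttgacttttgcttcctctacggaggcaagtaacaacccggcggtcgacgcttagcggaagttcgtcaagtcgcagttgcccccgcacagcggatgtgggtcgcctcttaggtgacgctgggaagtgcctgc
CDK13 (chr7:39950006-39950255, strand plus): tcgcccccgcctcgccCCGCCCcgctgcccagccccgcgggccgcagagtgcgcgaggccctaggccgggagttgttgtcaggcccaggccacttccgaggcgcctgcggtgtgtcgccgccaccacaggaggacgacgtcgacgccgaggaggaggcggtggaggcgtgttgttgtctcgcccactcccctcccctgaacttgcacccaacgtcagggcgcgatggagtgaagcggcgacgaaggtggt
PLK3 (chr1:44800127-44800376, strand plus): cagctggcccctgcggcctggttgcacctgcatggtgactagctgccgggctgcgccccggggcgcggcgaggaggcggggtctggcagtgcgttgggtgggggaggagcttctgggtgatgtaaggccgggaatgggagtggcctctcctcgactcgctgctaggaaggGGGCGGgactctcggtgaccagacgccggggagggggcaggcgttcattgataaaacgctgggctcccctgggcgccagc
MNAT1 (chr14:60734511-60734760, strand plus): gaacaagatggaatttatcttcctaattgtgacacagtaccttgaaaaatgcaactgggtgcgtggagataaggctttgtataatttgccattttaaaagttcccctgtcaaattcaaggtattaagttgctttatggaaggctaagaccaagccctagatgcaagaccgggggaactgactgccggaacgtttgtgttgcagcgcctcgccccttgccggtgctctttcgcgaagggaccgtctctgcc

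The window of CCNT1 held 1 GC box, 1 E-box and 1 CCAAT box, that of CDK13 and that of PLK3 1 GC box each, and that of MNAT1 none of the 6 motifs. A GC box was found in 8 of the 10 members (in all but CDK12 and MNAT1), against 42.3% of 27305 RefSeq promoters. This motif holds only G and C. The windows of these 8 members were 57.6% to 82.0% G or C, against 48.8% for CDK12 and 47.6% for MNAT1. The median over all promoters was 58.0%. The part of GC content in this count was not tested. The E-box stood in 2 members, CDK7 and CCNT1, and in 6.49% of all promoters. The CCAAT box was in 3 members (CCNT1, CCNT2 and CCNK) and in 33.0% of all, and copies of one motif were allowed to overlap. TATA, CRE and AP-1 letters were in no member and in 11.1%, 1.77% and 4.16% of all promoters. These matches describe letters in a window and not bound sites.

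P-TEFb releases paused Pol II, and its main cyclin was 1 of the 2 genes that fell. CCNT1 (ENSG00000129315.12, GRCh38 chr12:48688458-48716707, minus strand) encodes cyclin T1. It had 10.0 and 9.84 CPM (counts per 1000000, on scaled library sizes) in the T4A libraries, against 17.4 and 17.0 CPM in the WT libraries. The groups were far apart and their replicates close. The means were 9.92 ± 0.118 CPM in T4A cells, against 17.2 ± 0.283 CPM in WT cells (SD of 2 libraries each), from 227 and 185 counts and from 583 and 435 counts. The log2 fold change was -0.79 ± 0.14 (SE), a T4A level of 0.577 of the WT level (adjusted p = 0.000188).

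CCNT2 (ENSG00000082258.13, chr2:134918822-134959342, plus strand), which encodes the alternative cyclin T2, had 6.21 and 4.25 CPM in T4A cells, against 7.22 and 7.22 CPM in WT cells. Both T4A values were under both WT values, but they differed from each other by more than the nearer one differed from WT. Its log2 fold change was -0.46 ± 0.22 and it was not called (adjusted p = 0.15). Without T4A replicate 1 the value was -0.76, and without T4A replicate 2 it was -0.22, with 1 T4A library left in each fit.

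CDK9 (ENSG00000136807.14, chr9:127786034-127790792, plus strand) is the kinase of P-TEFb. It was measured at 12.6 and 12.3 CPM in T4A cells, against 14.6 and 13.3 CPM in WT cells. The groups did not overlap, yet the gap was small, and a log2 fold change of -0.16 ± 0.14 did not pass the test (adjusted p = 0.452). The kinase was also set against its cyclins within each library. The ratio of CCNT1 plus CCNT2 to CDK9, on counts per kilobase of exon within a library, was 0.487 and 0.439 in T4A cells, against 0.650 and 0.698 in WT cells, so the groups did not overlap. Over all genes, log2 fold change fell with exonic length. The smooth trend was -0.16 at the length of CCNT1, -0.21 at that of CCNT2 and 0.09 at that of CDK9. The part of this trend in the ratio was not tested. These ratios carry no test, since 2 against 2 libraries cannot bring an exact two-sided permutation test under a chance of 33.3%.

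**Figure D1:**
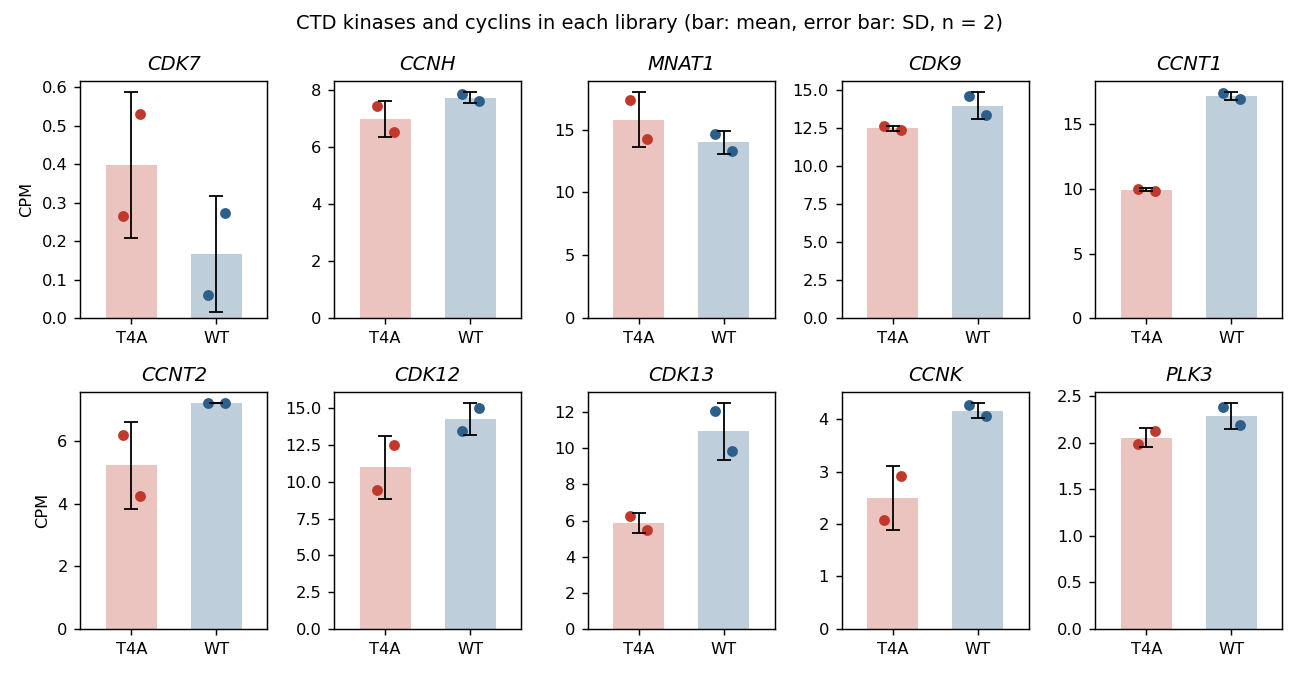
CPM of the 10 genes (y axes from 0, each with its own scale) in T4A and WT libraries; points are libraries, bars means and error bars SD of 2 libraries. CCNT1 (9.92 against 17.2 CPM) and CDK13 (5.87 against 10.9 CPM) are apart between groups by more than their spread, and MNAT1 overlaps.

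The kinases of elongation all had fold changes under 0. CDK13 (ENSG00000065883.18, chr7:39950256-40099580, plus strand), a cyclin K partner that phosphorylates the CTD in elongating Pol II, had 6.26 and 5.48 CPM in T4A cells, against 12.1 and 9.84 CPM in WT cells. The higher T4A value lay well under the lower WT value. Its means were 5.87 ± 0.552 CPM and 10.9 ± 1.56 CPM (T4A and WT, SD, n = 2), from 142 and 103 counts against 404 and 252. The log2 fold change of CDK13 was -0.90 ± 0.18, or 0.536 of the WT level (adjusted p = 0.00113), and 4.75% of all genes tested had a value at least as low.

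CDK12 (ENSG00000167258.16, chr17:39461486-39567559, plus strand), the paralogue of CDK13 best known for the expression of long DNA repair genes, had 9.47 and 12.5 CPM in T4A cells, against 13.5 and 15.0 CPM in WT cells. The upper T4A library came close to the lower WT library. The log2 fold change of -0.38 ± 0.16 was not called (adjusted p = 0.0879). Leaving out T4A replicate 2 gave -0.59, and leaving out T4A replicate 1 gave -0.19, with 1 T4A library left in each fit. The ratio of CDK13 to CDK12 per kilobase was 0.346 and 0.229 in T4A cells, against 0.468 and 0.343 in WT cells. These ratios overlapped, so a difference between the paralogues was not shown.

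CCNK (ENSG00000090061.17, chr14:99481409-99512440, plus strand) encodes cyclin K, the partner of both kinases. It had 2.07 and 2.92 CPM in T4A cells, against 4.26 and 4.06 CPM in WT cells, from 47 and 55 counts against 143 and 104. The groups were apart, but the error was wide at this depth, and the log2 fold change of -0.74 ± 0.29 was not called (adjusted p = 0.0709). Without T4A replicate 2 it was -1.01, and without T4A replicate 1 it was -0.51, with 1 T4A library left in each fit. Of the 8220 exonic bases of CCNK, 4893 are shared with CCDC85C on the opposite strand, and no strand setting is stated for the counting, so the level of CCNK is uncertain. The ratio of CCNK to the sum of CDK12 and CDK13 was 0.256 and 0.300 in T4A libraries and 0.340 and 0.318 in WT libraries.

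**Figure D2:**
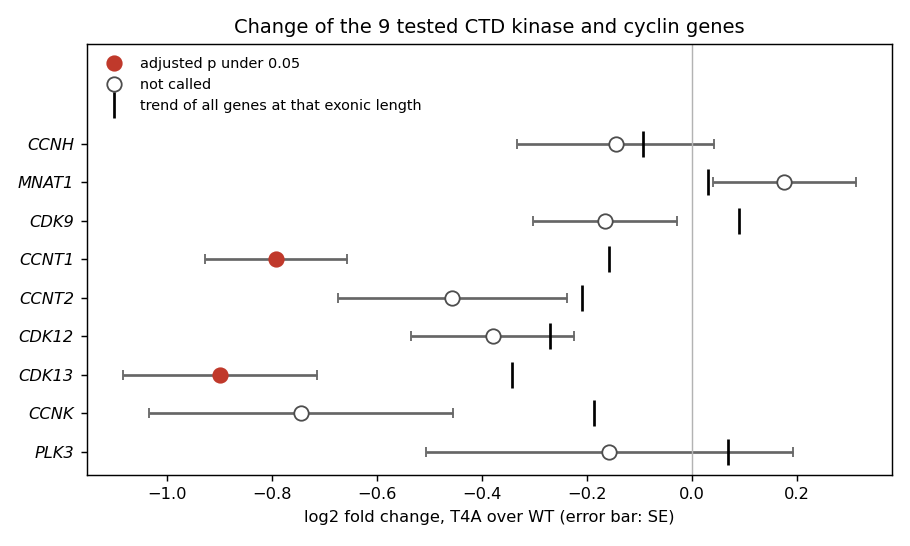
Log2 fold change of T4A over WT (x axis) with its SE for the 9 tested genes; filled points passed an adjusted p of 0.05, and black ticks give the smooth trend of all genes at the same exonic length. CCNT1 (-0.79) and CDK13 (-0.90) are filled and lie left of their ticks.

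The initiation kinase gave no call. MNAT1 (ENSG00000020426.11, chr14:60734761-60969965, plus strand) encodes MAT1, the assembly factor of the CDK-activating kinase. It had 17.3 and 14.2 CPM in T4A cells, against 14.6 and 13.3 CPM in WT cells, and these overlapped. Its log2 fold change was 0.18 ± 0.14 (adjusted p = 0.409), the only one of the 9 above 0. CCNH (ENSG00000134480.16, chr5:87311471-87412930, minus strand), which encodes cyclin H, had 7.45 and 6.54 CPM in T4A cells, against 7.87 and 7.61 CPM in WT cells. Its log2 fold change of -0.14 ± 0.19 was not called (adjusted p = 0.657). CCNH shares 771 exonic bases with RASA1 on the other strand. The ratio of CCNH to MNAT1 was 0.279 and 0.297 in T4A cells, under the 0.349 and 0.371 of WT cells. On canonical transcript length the same ratio was 0.890 and 0.950 in T4A cells, against 1.11 and 1.18 in WT cells. The length used scales this ratio alike in every library. The T4A ratio was thus 0.801 of the WT ratio on either length, which is no separate check.

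CDK7 (ENSG00000134058.12, chr5:69234795-69277430, plus strand), the catalytic subunit, was counted 6 and 10 times in T4A libraries and 2 and 7 times in WT libraries. The sums of 16 and 9 counts give a ratio of 2.53 with an exact binomial 95% interval of 1.05 to 6.51, which covers counting error only. Per library the groups overlapped, at 0.264 and 0.532 CPM in T4A cells, against 0.0596 and 0.273 CPM in WT cells. Such low values for a gene of the general transcription machinery were looked at further. Of 15 protein-coding genes that lie between MRPS36 and MCCC2 in the annotation, CDK7 the first of them, 10 were under 1 CPM on average. The highest reached 6.01 CPM. The flanking genes were well counted, with 23.1 and 21.7 CPM (T4A) and 16.4 and 17.4 CPM (WT) for MRPS36 and with 170 and 176 CPM (T4A) and 249 and 243 CPM (WT) for MCCC2. This stretch was chosen after its values were seen. The level of CDK7 was therefore not read, and ratios to it were not formed.

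PLK3 (ENSG00000173846.13, chr1:44800377-44805990, plus strand) is a stress-responsive polo-like kinase. It had 1.98 and 2.13 CPM in T4A cells, against 2.39 and 2.19 CPM in WT cells, from 45 and 40 counts against 80 and 56. The lower WT library and the higher T4A library nearly met. The log2 fold change of -0.16 ± 0.35 was not called (adjusted p = 0.816), and with this error a moderate change in either direction was not detectable. The ratio of PLK3 to CDK9, both of them candidates for Thr4, was 0.142 and 0.156 in T4A cells, against 0.148 and 0.148 in WT cells.

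**Figure D3:**
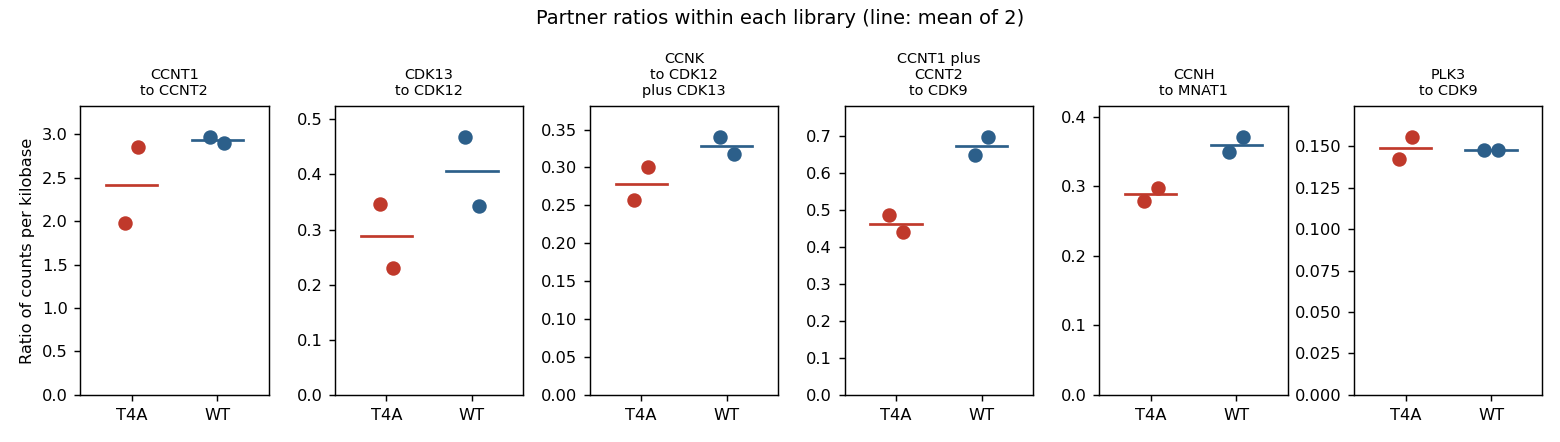
Ratios of partner genes on counts per kilobase of exon (y axes from 0) in each T4A and WT library; lines are means of 2 libraries. They were not adjusted for the trend of log2 fold change with exonic length. The ratio of CCNT1 plus CCNT2 to CDK9 is apart between groups (0.487 and 0.439 against 0.650 and 0.698), and those of CDK13 to CDK12 and of PLK3 to CDK9 overlap.

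Levels were scaled to the union of annotated exons (RPKM, CPM per kilobase of exon), and the order of the genes depends on that length. In T4A cells CDK9 averaged 4.15 and MNAT1 4.07 RPKM, followed by CCNT1 at 1.35, CCNH at 1.17, CDK12 at 0.847, PLK3 at 0.618, CCNT2 at 0.576, CCNK at 0.304 and CDK13 at 0.237 RPKM. In WT cells CDK9 averaged 4.65, MNAT1 3.60, CCNT1 2.33, CCNH 1.29, CDK12 1.10, CCNT2 0.795, PLK3 0.687, CCNK 0.506 and CDK13 0.442 RPKM. In T4A cells 3 neighbours in this order overlapped, namely CDK9 with MNAT1, PLK3 with CCNT2 and CCNK with CDK13. In WT cells no neighbours overlapped. The union of exons is longer than the canonical transcript for every tested gene, most of all for CCNH (5981 against 1280 bases) and CDK13 (24780 against 9525 bases). On canonical length, an alternative chosen after the data were seen, CCNH averaged 5.46 CPM per kilobase in T4A cells, against 6.05 in WT cells. It then stood beside MNAT1 (5.96 in T4A cells, 5.28 in WT cells) and CDK9 (5.02 in T4A cells, 5.62 in WT cells). CDK13 averaged 0.616 in T4A cells, against 1.15 in WT cells, and PLK3, at 0.977, was then the lowest in WT cells.

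Long transcripts were called lower more often than short ones over all genes. With all tested genes split into 5 bins of about equal size by exonic length, 32.1% were called lower and 4.21% higher in the longest bin, against 1.72% lower and 13.8% higher in the shortest. CDK12, CDK13 and CCNT2 belong to the longest bin, and CCNT1, CCNK and CCNH to the next, of which 19.1% were called lower. Against the smooth trend at its own length, CDK13 stood at -0.56 and CCNT1 at -0.64 on the log2 scale. Both were called in edgeR after the trend was removed, CDK13 narrowly (adjusted p = 0.0404) and CCNT1 at an adjusted p of 0.00207. CDK12 stood at -0.11 from a trend of -0.27, CCNK at -0.56, CCNT2 at -0.25, CDK9 at -0.26, PLK3 at -0.23, CCNH at -0.05 and MNAT1 at 0.15. Across the 9 genes, which share the same 4 libraries and are not independent replicates, Spearman's rho between exonic length and log2 fold change was -0.683, and with 3′ UTR length it was -0.767. The part of transcript length in these differences was not tested further.

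**Figure D4:**
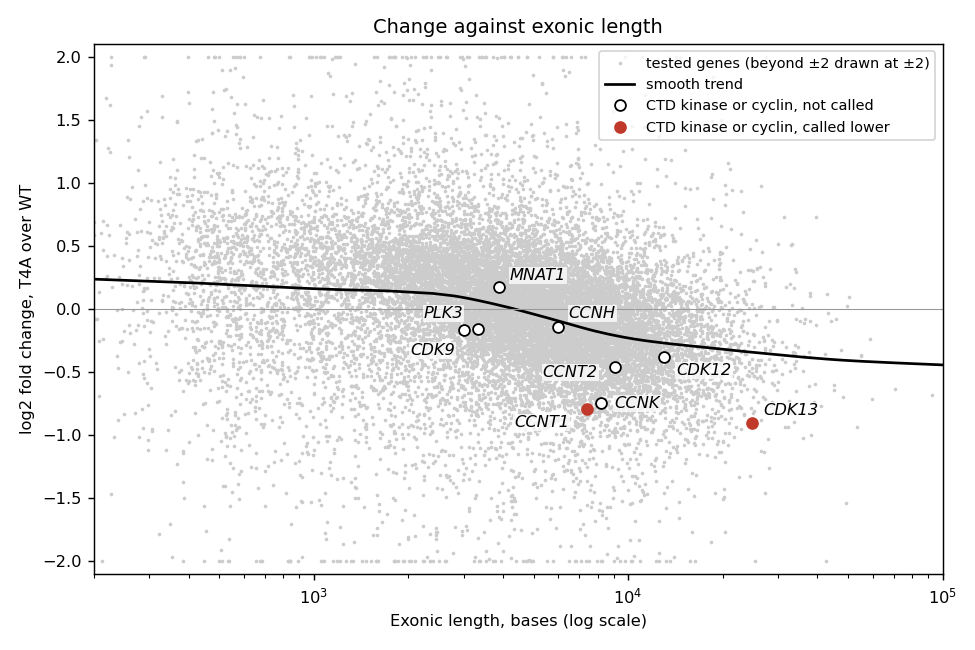
Log2 fold change of T4A over WT (y axis) against exonic length (x axis, log scale); grey points are tested genes, with values beyond 2 drawn at the edge, the line is the smooth trend, and the 9 CTD kinase and cyclin genes are named. CDK13 and CCNT1, in red, lie 0.56 and 0.64 under the line.

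The 3′ UTR of an mRNA carries elements that set its half-life, and the AU-rich nonamer UUAUUUAUU is a known one in short-lived mRNAs. It was looked for in the canonical 3′ UTR of each member because PLK3 is an early response gene. PLK3 held 2 copies and CCNT2 held 1, and the other 8 members held none. Of 13554 tested genes with such a UTR, 9.46% held it. The first copy in PLK3 and the copy in CCNT2, in capitals with 10 bases on each side, read 5′ to 3′:
PLK3: uggaccacuuUUAUUUAUUgucagacacu
CCNT2: uacaaugacuUUAUUUAUUaaagggcagc

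The pentamer AUUUA was found 15 times in CDK13, 15 times in CCNT1 and 17 times in CCNT2, whose 3′ UTRs span 4600, 4575 and 4694 bases. It was found 8 times in CDK12 (3228 bases), 5 times in MNAT1, 3 times each in CCNK and PLK3, 2 times in CDK9 and 1 time each in CCNH and CDK7. The median over tested genes was 2 copies, with a median 3′ UTR length of 1330 bases. Per kilobase of 3′ UTR, CDK13 held 3.26, CCNT1 3.28 and CCNT2 3.62 copies. The other members held 9.62 (PLK3), 5.81 (CCNH), 3.39 (CDK7), 3.09 (MNAT1), 2.48 (CDK12), 1.81 (CCNK) and 1.6 (CDK9). Genes with the nonamer had a median log2 fold change of -0.22 and those without one of -0.01. UTR lengths were not matched between them.

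Beyond the 10 genes, lists of related genes were described by their counts. The shares to set beside the main-fit counts of each list are those of all genes tested, 13.0% called lower and 10.7% higher. List counts from other settings have other backgrounds among the same 18139 genes. Upper quartile scaling called 1718 lower and 2690 higher, library totals alone 2987 and 1352, and removal of the length trend 1393 and 1993. Core subunits of TFIIH, the factor that carries the CDK-activating kinase, gave 1 call among 6 tested genes, and 3, all higher, with the length trend removed. GTF2H5 rose, to 79.1 and 77.6 CPM in T4A cells, against 58.5 and 61.4 CPM in WT cells (adjusted p = 0.000332). Of 11 P-TEFb regulators 1 fell and 1 rose, or 2 and 0 on library totals alone. AFF4, the scaffold of the super elongation complex, which binds P-TEFb, was at 18.7 ± 1.00 CPM in T4A cells, against 28.3 ± 0.780 CPM in WT cells (log2 fold change -0.60 ± 0.10, adjusted p = 0.000219). MLLT1, another subunit of that complex, had a log2 fold change of 0.28 ± 0.08 (adjusted p = 0.0157), a call that was lost on library totals alone (adjusted p = 0.0855).

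The Mediator kinase module, which holds CDK8 or CDK19 with cyclin C, had 3 of 7 genes lower and 0 higher, and 2 lower and 1 higher with the length trend removed. Its median exonic length was 12673 bases, and in the longest of the 5 length bins the main fit called 32.1% of all genes lower. MED13L (log2 fold change -0.82 ± 0.14, adjusted p = 0.00017), MED12L (-0.73 ± 0.20, adjusted p = 0.0117) and CDK19 (-0.52 ± 0.11, adjusted p = 0.00169) fell. Among 14 other genes reported as CTD kinases or their cyclins, 5 fell and 2 rose, or 3 and 2 with the length trend removed. PRKDC, the DNA-dependent protein kinase, was at 289 ± 7.60 CPM in T4A cells, against 499 ± 15.4 CPM in WT cells (log2 fold change -0.79 ± 0.04, adjusted p = 9.47e-11). CSNK2A1, a catalytic subunit of casein kinase 2, was at 22.2 ± 0.110 and 31.0 ± 0.843 CPM (T4A and WT, adjusted p = 0.000988). MAPK3, a MAP kinase, rose by 0.35 ± 0.04 on the log2 scale (adjusted p = 4.00e-06).

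The other polo-like kinases had a median log2 fold change of 0.53, with 2 of 4 called higher and 0 lower, or 1 higher on library totals alone. Of all genes tested 10.7% were called higher in the main fit. PLK2, also stress-responsive, had 5.86 and 7.44 CPM in T4A cells, against 4.56 and 3.59 CPM in WT cells (adjusted p = 0.035). PLK5 had 15.6 and 12.8 CPM in T4A cells, against 8.26 and 9.72 CPM in WT cells (adjusted p = 0.00417). PLK3 was not set against them in a test. Of 10 further CDKs, CDK5 alone was called, at 113 ± 4.81 CPM in T4A cells, against 88.0 ± 0.845 CPM in WT cells (adjusted p = 0.000171), and 3 were called higher with upper quartile scaling or with the length trend removed. CTD phosphatases remove the marks these kinases write, and of 9 tested 2 rose (PPP1CA, 0.33, and SSU72, the Ser5 phosphatase, 0.29 on the log2 scale) and 2 fell (CTDSPL2, -0.45, and RPAP2, -0.50). After removal of the length trend 2 were called higher and 0 lower.

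Genes known to depend on CDK12 and on P-TEFb were described as well. Of 18 DNA repair genes tied to CDK12 in human cells, 9 fell and none rose in the edgeR test, with a median log2 fold change of -0.38 and a median exonic length of 12086 bases. Among all genes tested 13.0% were called lower and 10.7% higher. In the longest of the 5 length bins, which spans that length, 32.1% were called lower and 4.21% higher. With the length trend removed the median was -0.17, and 0 of the 18 were called lower and 1 higher, and with upper quartile scaling 6 were called lower and 1 higher. FANCI, of the Fanconi anaemia complex that loads on cross-linked DNA, was at 115 ± 6.24 CPM in T4A cells, against 155 ± 2.14 CPM in WT cells (adjusted p = 1.06e-05). The checkpoint kinases ATM and ATR had log2 fold changes of -0.60 ± 0.10 and -0.71 ± 0.14 (adjusted p = 0.000174 and 0.000665), and the helicase BRIP1 one of -0.54 ± 0.13 (adjusted p = 0.00325). Of 11 short-lived transcripts that need P-TEFb, 5 rose and 1 fell, with a median of 0.46, and 5 rose and 0 fell with upper quartile scaling or with the length trend removed. The AP-1 subunit JUN was at 89.4 and 89.3 CPM in T4A cells, against 63.6 and 62.4 CPM in WT cells (adjusted p = 1.07e-05). IER2 (0.39), IER5 (0.35) and JUNB (0.46) also rose on the log2 scale. These lists were drawn up with earlier results of these data known.

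**Figure D5:**
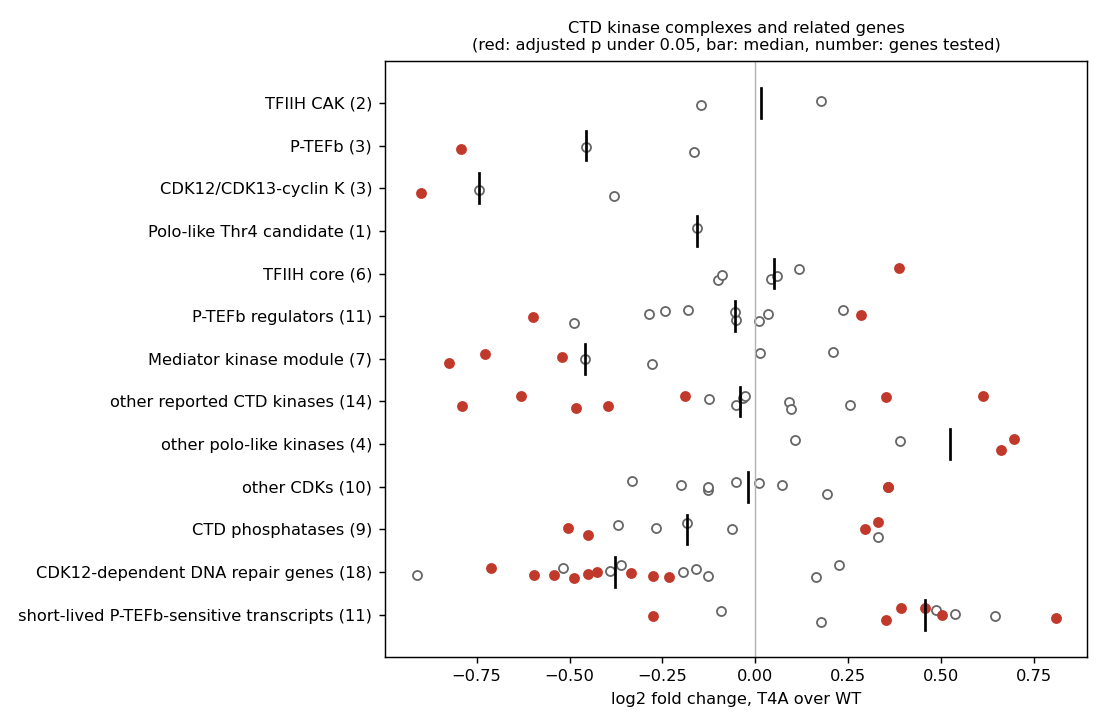
Log2 fold change of T4A over WT (x axis) of single genes by list, with the number tested; red points passed an adjusted p of 0.05 and bars are medians. The CDK12-dependent repair genes centre at -0.38 and the short-lived P-TEFb-sensitive transcripts at 0.46.

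The genes with profiles most like those of CDK13 and PLK3 were sought by the Euclidean distance between centred log2 CPM over the 4 libraries, among protein-coding genes within 1 log2 unit of the same mean. For CDK13 the nearest of 4026 genes were PPP1R3B (distance 0.0223, log2 fold change -0.89), AP4E1 (0.0607, -0.84) and INVS (0.0877, -0.81). For PLK3 the nearest of 2733 genes were PEX11A (0.0694, -0.12), ITIH5 (0.0773, -0.19) and LIF (0.0789, -0.19).

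The libraries themselves set the precision of all these values. They held 19257217 and 23465029 counts in T4A cells and 24695291 and 33063535 counts in WT cells. Genes with counts numbered 25696 and 26213 in T4A libraries, against 27801 and 28520 in WT libraries, and mitochondrially encoded genes took 18.8% and 19.0% of T4A counts, against 20.2% and 21.4% of WT counts. The part of these gaps in the results was not tested, apart from a fit without the mitochondrial genes, which called the same number of members. POLR2A, the transfected gene, was at 5428 ± 70.5 CPM in T4A cells, against 3268 ± 713 CPM in WT cells (adjusted p = 7.23e-07), and its counts do not tell the construct from the cells' own gene. Lineage genes of HEK293T (NEFM, NEFL, PAX2 and LIN28B) summed to 149.8 to 152.4 CPM in T4A cells, against 180.5 to 182.3 CPM in WT cells. Markers of endothelium, of which 3 of 4 were found, summed to 0.106 to 0.353 CPM in T4A cells, against 0.238 to 0.312 CPM in WT cells, and those of hepatocytes to 1.59 to 3.51 CPM and 1.40 to 1.87 CPM (T4A and WT). Blood markers, nearly all CD14, summed to 15.7 to 19.0 CPM in T4A cells, against 12.2 to 14.2 CPM in WT cells, fibroblast markers to 30.8 to 33.5 CPM in T4A libraries, against 35.2 to 37.4 CPM in WT libraries, and muscle markers to 7.23 to 8.40 CPM in T4A libraries, against 5.19 to 5.40 CPM in WT libraries. The defining blood gene PTPRC was counted 2 times in 1 library and COL1A2 in none. The part of these markers in the results above was not tested.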

How the data were processed

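Poly(A) RNA was sequenced from 2 T4A and 2 WT libraries. The authors deposited raw counts per gene, not normalized. The submitters' notes name Trimmomatic 0.38, HISAT2 2.2.1, featureCounts 2.0.1 and build hg38. According to the methods reads were aligned without strand, and no strand setting is stated for featureCounts. For fragments with several matches, the counting rule is not given in the sources read. Gene symbols and lengths came from GENCODE release 44, which matched 60877 of the 62700 identifiers, in its version lifted to a build older than hg38. UTRs, shared exonic bases and the gene order between MRPS36 and MCCC2 came from the same lifted version. Coordinates and promoters came from RefSeq GRCh38.p14.

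Counts were filtered with filterByExpr and tested in edgeR 4.0.16 (R 4.3.3) with TMM, glmQLFit, glmQLFTest and Benjamini-Hochberg adjustment, called at 0.05, with all 4 libraries in the fit. CPM use TMM-scaled library sizes, and RPKM divide them by the union of exons. The length trend is a loess fit (span 0.5) of log2 fold change on exonic length. Alternatives were 3 other scalings, 2 other filters, DESeq2 1.42.0, limma-voom (limma 3.58.1), a fold threshold of 1.2, a fixed coefficient of variation of 0.2, mitochondrial genes left out, the length trend removed, a replicate block and each library left out. The text names the 10 members, POLR2A, up to 4 called genes with the smallest p from each other list, and 3 nearest profiles each for CDK13 and PLK3. A gene that this rule takes is not reported here. Members and lists were chosen with earlier results of these data known. Replicates are biological according to the study, but separate cultures are not named in the labels, and p-values then reflect only the spread of these 4 libraries, possibly a technical one.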

Additional observations from a re-analysis of the deposited data

How the results depend on the processing

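The direction of the 9 tested members did not turn in any alternative run. CCNT1 and CDK13 were called lower in 15 of 16 alternatives each, the exception being a fixed coefficient of variation of 0.2, where CCNT1 had an adjusted p of 0.133 and CDK13 of 0.0838 and 0 members were called lower. Among the fits with all 4 libraries, members called lower numbered 4 with library totals alone. That scaling added CDK12 (-0.46, adjusted p = 0.0439) and CCNK (-0.82, adjusted p = 0.0457). In that setting 2987 of all 18139 genes tested were called lower. The median log2 fold change over all genes was then -0.08, against -0.01 in the main fit. With each library left out in turn, the log2 fold change ranged between -0.81 and -0.77 for CCNT1 and between -1.04 and -0.74 for CDK13. The group that lost a library then held 1, so calls in these fits rest on the spread within the other group alone. Over all genes, 2351 were called lower and 1935 higher. The test against a fold of 1.2 gave 980 and 596, the fixed coefficient of variation gave 306 and 239, and removal of the length trend gave 1393 and 1993. The share of higher calls was 45.1%, against 61.0% with upper quartile scaling, 31.2% with library totals alone and 58.9% with the length trend removed. Same-numbered libraries did not deviate together (correlation -0.00379), and with the replicate block the counts were 2432 lower and 2012 higher, with 2 members lower and 0 higher. On canonical transcript length, the T4A ratio of CCNK to CDK12 plus CDK13 was 0.881 of the WT ratio, against 0.847 on the union of exons. DESeq2 gave no adjusted p for PLK3. Among the related genes named, MED12L (adjusted p = 0.143), CSNK2A1 (0.459), CTDSPL2 (0.156), RPAP2 (0.391), FANCI (0.157), ATM (0.181), ATR (0.0795) and BRIP1 (0.251) were no longer called in at least 1 of 3 other scalings or with the length trend removed, nor were PLK2 (0.061) and JUNB (0.0638), and the sign of each held.

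Depth limits the low genes most: PLK3, CCNK and CDK7 had at most 143 counts in any library. With 2 libraries per group, and no statement in the labels that they are separate cultures, a member that was not called is not shown to be unchanged. Values are shares of a library, and say nothing of RNA per cell. Protein and kinase activity were not measured here.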
